A study of Mus musculus with 3 samples.

Results

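The genes Gphn, Rad51l1 and Actn1 lie in that order on mouse chromosome 12, inside a window whose probes run from 78503600 to 81996945 of the mm9 build. Array comparative genomic hybridisation compares the amount of DNA at each probe between a test DNA and a reference DNA on the same array. The members were every probe named for 1 of the 3 genes and every probe in the window, which gave 289 probes of 170305 on the array. Of these, 45 were named for Gphn, 53 for Rad51l1 and 9 for Actn1, 129 were named for 29 other genes, and 53 had no gene name. All probes of the 3 genes lay inside the window, where the median distance between neighbouring probes was 9945 bp. The genes were chosen by their mean log2 ratios on these same arrays and by how array 1 differed from the others, so their ratios are given as a description, with no test.

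The test DNA came from 3 neurosphere lines, which are floating cultures of tumour cells, at passages 2 to 3. The lines were grown from mouse brain tumours that had become resistant to inhibition of CSF-1R, the receptor that microglia and macrophages need to survive. Line DNA carried Cy5 and liver DNA carried Cy3 on all 3 arrays, with no dye swap. Array 1 held the line NS_R_43674 against liver of the same animal number. Arrays 2 and 3 held the lines NS_R_43289A and NS_R_43289B, which share an animal number and a liver label. There was 1 group, with no line from an untreated or sensitive tumour, and strain, age, transgenes and the inhibitor's name are not given in the sources used here. Each value is log2 of Cy5 over Cy3, centred on the median of the autosomal probes of its array, so that a value above 0 means more signal from the line than from liver. If all cells of a line gained 1 copy on top of 2, the value would be 0.585, and if all lost 1 of 2, it would be -1.

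Gephyrin, the product of Gphn, is the scaffold that holds glycine and GABA receptors at inhibitory synapses, and it also carries out the last steps of molybdenum cofactor synthesis. RAD51B, the product of Rad51l1 (Rad51b in current RefSeq naming), takes part in homologous recombination, the repair of broken DNA from an intact copy. Alpha-actinin-1, the product of Actn1, crosslinks actin filaments and ties them to focal adhesions.

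Array 1 was the noisiest of the 3. The spread between neighbouring probes was 0.387 on array 1, 0.235 on array 2 and 0.245 on array 3. In the window, 6 probes of array 1 had a liver signal not well above background, and 0 probes had on arrays 2 and 3. Chromosome 12 outside the window had means of 0.013, 0.0022 and 0.0035 on arrays 1, 2 and 3, and the window had 0.076, 0.059 and 0.070.

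Of the 3 genes, Gphn was high on array 1 only, and a stretch outside them was high on all 3 arrays. The shared stretch lay between Rad51l1 and Actn1, where 25 probes averaged 0.30, 0.31 and 0.33 on arrays 1, 2 and 3, a mean of 0.31 ± 0.014 (SD, n = 3 arrays). The array 1 shift lay in Gphn, whose means were 0.17, -0.11 and -0.0020. Rad51l1 was above 0 on every array at 0.061, 0.11 and 0.17. Actn1 was below 0 on every array at -0.13, -0.022 and -0.13, but not under every way of processing.

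**Figure D1:**
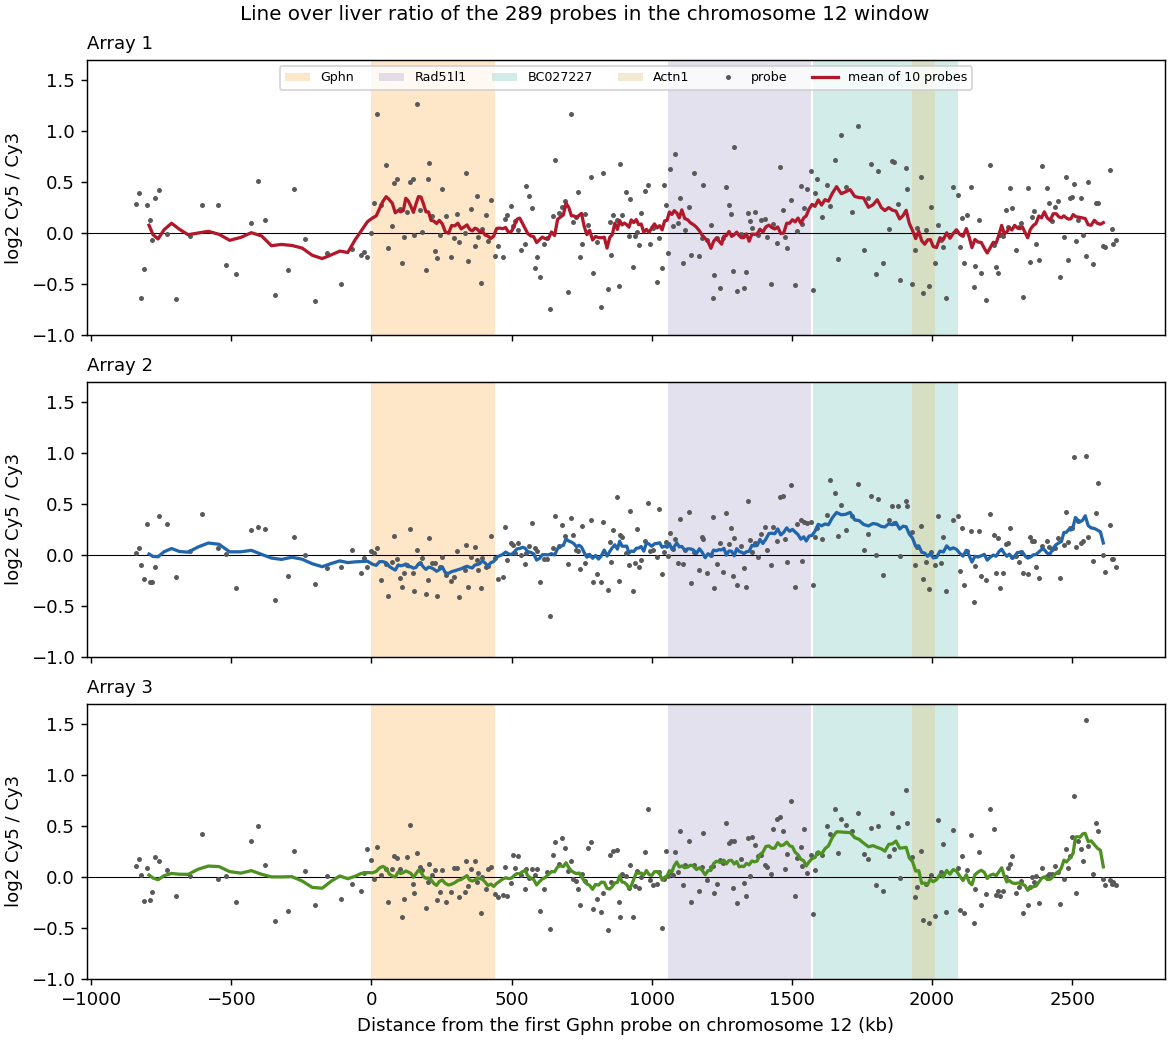
The log2 ratio of line over liver (vertical axis) for each of the 289 probes (grey points) along chromosome 12, as the distance in kb from the first Gphn probe (horizontal axis), with 1 panel per array; coloured lines are means of 10 consecutive probes and shaded bands are the spans of the named probes, with Actn1 inside the BC027227 band. The line rises to about the same height on all 3 arrays between Rad51l1 and Actn1 (10-probe means of 0.46, 0.42 and 0.44), and over Gphn it is raised on array 1 only.

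The probes that carry these patterns are printed here, each a 60-base oligonucleotide of the array's design with its mm9 position. The first 3 have the highest means over the 3 arrays among the probes named BC027227, the array's name for most of the stretch between Rad51l1 and Actn1. The next 3 have the highest excess of array 1 over the mean of arrays 2 and 3 in Gphn. The last 4 are the highest and the lowest probe of Rad51l1 and of Actn1. No base is in capitals because no motif was searched.
BC027227, chr12:81076429-81076488: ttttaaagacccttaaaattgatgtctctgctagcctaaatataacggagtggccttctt
BC027227, chr12:81019156-81019215: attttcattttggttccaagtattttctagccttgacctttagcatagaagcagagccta
BC027227, chr12:81248272-81248331: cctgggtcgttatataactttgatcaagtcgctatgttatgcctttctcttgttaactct
Gphn, chr12:79503793-79503852: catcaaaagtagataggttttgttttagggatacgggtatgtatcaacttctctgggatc
Gphn, chr12:79362575-79362634: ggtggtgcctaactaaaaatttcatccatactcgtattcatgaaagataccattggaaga
Gphn, chr12:79543106-79543165: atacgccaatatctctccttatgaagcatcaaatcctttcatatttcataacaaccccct
Rad51l1 highest, chr12:80799576-80799635: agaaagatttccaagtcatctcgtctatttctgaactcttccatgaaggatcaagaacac
Rad51l1 lowest, chr12:80647270-80647329: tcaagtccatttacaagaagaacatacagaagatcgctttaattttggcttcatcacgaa
Actn1 highest, chr12:81301152-81301211: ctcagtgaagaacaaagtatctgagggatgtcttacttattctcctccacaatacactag
Actn1 lowest, chr12:81332578-81332637: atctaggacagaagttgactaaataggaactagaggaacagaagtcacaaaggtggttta

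These oligonucleotides held between 21 and 24 G or C bases of 60, so the high and the low probes differed little in base composition. The first BC027227 probe read 1.05, 0.70 and 0.62 on arrays 1, 2 and 3, and the third read 0.64, 0.53 and 0.85. Both ratios were therefore high on every array, but the line and liver signals of both probes lay below the autosomal median. In log2 centred on that median, the first had line signals of -0.23, -0.15 and -0.063. Its liver signals were -1.27, -0.84 and -0.67. The third had line signals of -1.24, -1.33 and -1.13 and liver signals of -1.87, -1.84 and -1.96. The first Gphn probe read 1.27, 0.051 and 0.23, and its liver signal, in log2 centred on the autosomal median, was -2.58 on array 1 against -1.48 and -1.55 on arrays 2 and 3. Its line signal was nearly level, at -1.32, -1.44 and -1.34. The second Gphn probe read 1.17, 0.072 and 0.30, again with its liver signal lowest on array 1, at -2.26 against -1.21 and -1.30. Its line signal was -1.10, -1.14 and -1.02. The third Gphn probe read 0.53, -0.24 and -0.052, and its line signal on array 1, at 0.37, lay between those of arrays 2 and 3 at 0.13 and 0.61. In all 3 of these Gphn probes the liver signal was lower on array 1 than on arrays 2 and 3.

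Gphn was covered by 45 probes over 440.7 kb (79342432 to 79783154). On array 1 its probes ran from -0.49 through a median of 0.17 to 1.27, and 28 of 45 lay above 0. On array 2 they ran from -0.41 through -0.093 to 0.26, and 11 lay above 0. On array 3 they ran from -0.39 through 0.042 to 0.51, and 25 lay above 0. The means were 0.17 (SE over probes 0.055), -0.11 (SE 0.025) and -0.0020 (SE 0.027), which average to 0.020 ± 0.14 (SD, n = 3 arrays). Gphn thus had no direction common to the arrays: 9 of its probes were above 0 on all 3 arrays and 12 were below 0 on all 3, where 33.4% and 34% of autosomal probes were.

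The excess of array 1 over the mean of arrays 2 and 3 was 0.22 in Gphn (SE over probes 0.043). Array 1 was above both other arrays at 30 of 45 Gphn probes, where it was above both at 39.8% of autosomal probes. It was above both by at least 0.3 at 11 probes, where 8.64% of autosomal probes were, and below both by at least 0.3 at 0 probes, where 9.23% were. These counts use the values by which the gene was chosen and are given as a description. Arrays 2 and 3 also differed from each other in Gphn, by -0.10.

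**Figure D2:**
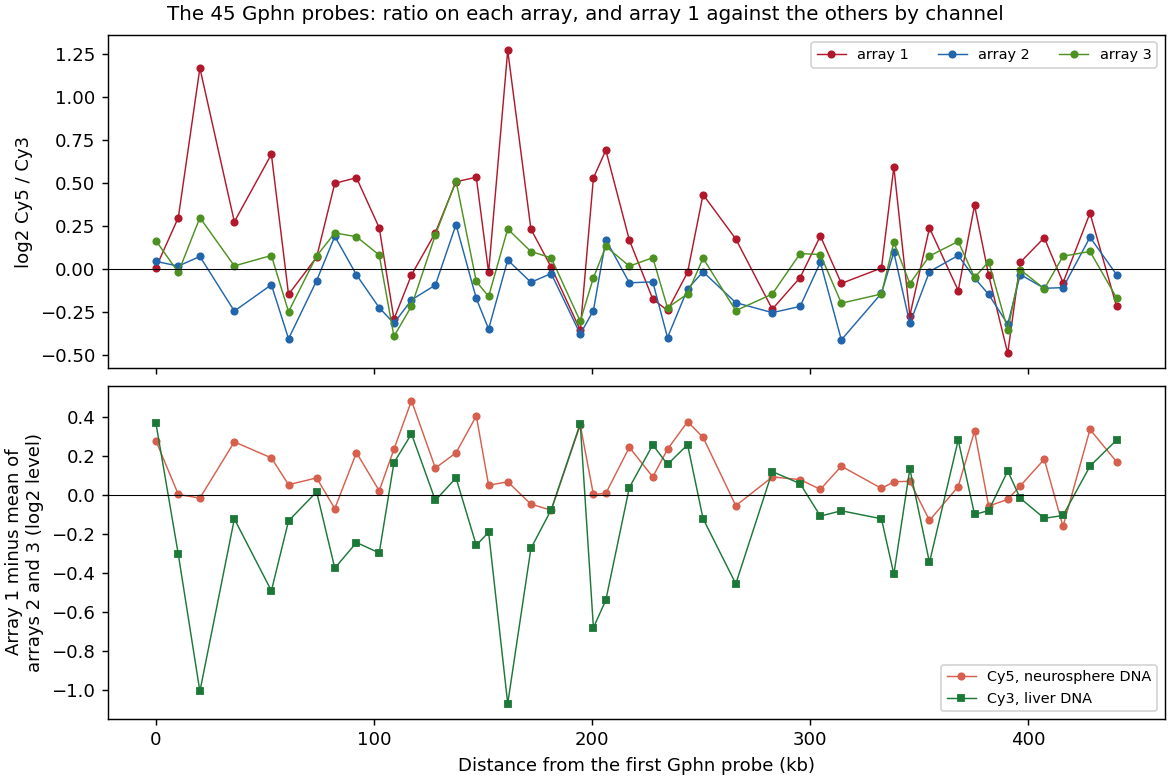
Upper panel, the log2 ratio of each of the 45 Gphn probes on arrays 1, 2 and 3; lower panel, array 1 minus the mean of arrays 2 and 3 in log2 signal, for the line channel (Cy5) and the liver channel (Cy3); both against distance from the first Gphn probe in kb. The array 1 peaks of 1.27 and 1.17 stand over dips of the liver channel, while the line channel lies mostly a little above 0 along the gene.

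Both dyes contributed to the Gphn excess. The line signal of array 1 was 0.12 above the mean of arrays 2 and 3 over the 45 probes, and its liver signal was 0.11 below. Array 1 differs from the other arrays in its line, its animal, its liver and its hybridisation at once, so these cannot be told apart from 1 array. The excess fell off along the gene. In the first 15 probes (79342432 to 79489432) the means were 0.30, -0.084 and 0.058, an excess of 0.31. In the middle 15 they were 0.16, -0.15 and -0.035, an excess of 0.25. In the last 15 they were 0.042, -0.087 and -0.029, an excess of 0.10.

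Dim probes carried more of the excess than bright ones. The 22 dimmer Gphn probes, ranked by mean signal over both dyes and all arrays, had an excess of 0.29, with 19 above 0. The 23 brighter ones had an excess of 0.16, with 16 above 0. The ranking itself uses the liver signal of array 1. The whole window split in the same direction, with a difference of 0.057 in its 144 dimmer probes and -0.035 in its 145 brighter ones. In the dimmer Gphn probes the liver signal of array 1 was 0.18 lower than on arrays 2 and 3, and in the brighter Gphn probes it was 0.045 lower. The line signal was 0.12 higher in both sets of Gphn probes. In Gphn, 2 probes had a liver signal not well above background on array 1, and the part of dim signal in the excess was not tested beyond these values.

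Among the 351 genes with at least 40 probes, a minimum taken after the values were seen, 2 (0.57%) had an excess of array 1 as high as that of Gphn. These were Gphn itself and Eda, an X-linked gene, at 0.25. By its mean over the 3 arrays, Gphn was unremarkable: 74 of the 351 genes (21.1%) had a mean at least as high. Over all 9462 genes with at least 3 probes, 169 (1.79%) had an excess of at least 0.3 and 169 (1.79%) a deficit of at least 0.3, and Gphn is in neither count. Past 0.2, where Gphn does lie, there were 7.14% of genes up and 6.13% down.

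**Figure D3:**
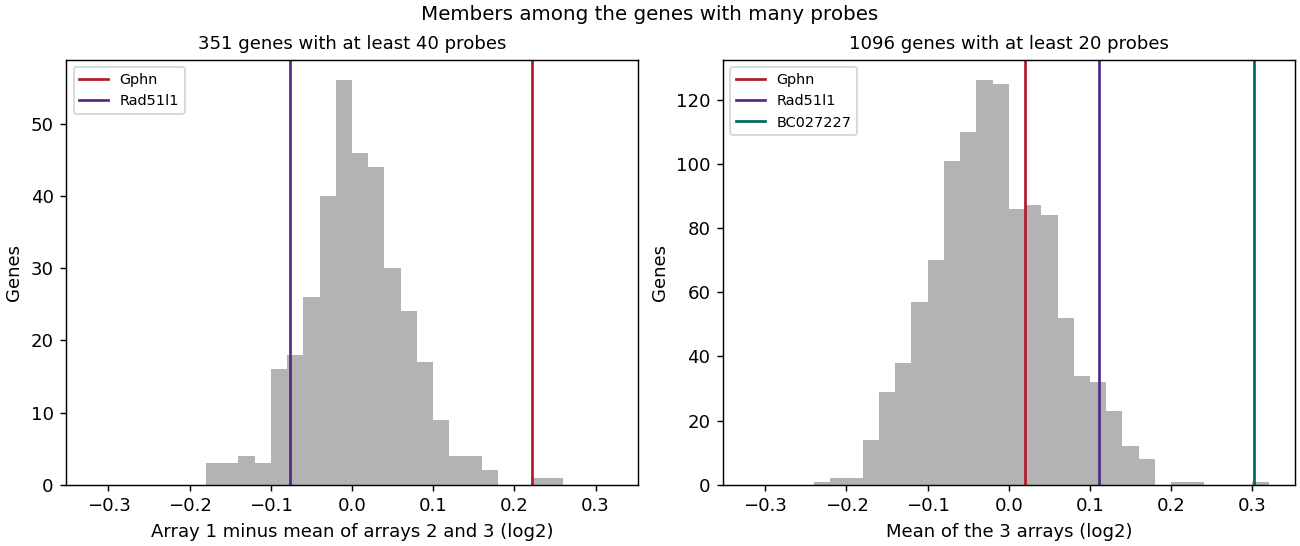
Histograms of gene means in log2 (horizontal axes), with the number of genes on the vertical axes and vertical lines for the named genes: left, array 1 minus the mean of arrays 2 and 3 for 351 genes with at least 40 probes; right, the mean of the 3 arrays for 1096 genes with at least 20 probes. Gphn at 0.22 lies near the right end of the left histogram, and BC027227 at 0.30 is the last value of the right one.

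Rad51l1 was covered by 53 probes over 510.7 kb (80400542 to 80911228). On array 1 its probes ran from -0.64 through a median of 0.070 to 0.85, and 30 lay above 0. On array 2 they ran from -0.33 through 0.12 to 0.68, and 35 lay above 0. On array 3 they ran from -0.26 through 0.12 to 0.74, and 42 lay above 0. The array means of 0.061 (SE over probes 0.049), 0.11 (SE 0.034) and 0.17 (SE 0.032) gave 0.11 ± 0.053 (SD, n = 3 arrays), with all arrays on the same side of 0. A mean above 0 on all 3 arrays was found in 32.7% of the 9462 genes.

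The higher values of Rad51l1 lay at its end nearest Actn1. The first 18 probes (80400542 to 80566133) averaged 0.071, 0.050 and 0.082 on arrays 1, 2 and 3. The next 18 averaged -0.0014, 0.055 and 0.16. The last 17 (80745863 to 80911228) averaged 0.12, 0.22 and 0.26, so that this end was the highest on every array. Of the 53 probes, 28 were above 0 on all 3 arrays, against 33.4% of autosomal probes. Below 0 on all 3 were 11, against 34%. At least 0.2 on all 3 arrays was reached by 10 probes, against 11.2% of autosomal probes, and -0.2 or lower by 2, against 12.6%.

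In Rad51l1, array 1 was the lowest array. It lay below both others at 30 of 53 probes, where it did so at 43.1% of autosomal probes, and its mean was 0.076 below that of arrays 2 and 3 (difference -0.076, SE over probes 0.038). The 10 consecutive probes with the lowest difference in the window were also in Rad51l1 (80766832 to 80859140), with 0.0028, 0.22 and 0.31 on the 3 arrays and a difference of -0.27. Of 161278 such autosomal runs, 0.818% lay as low, and this run was picked as the lowest of the 280 in the window. Among the genes with at least 40 probes, 10 of 351 (2.85%) had a mean at least as high as Rad51l1 and 35 (9.97%) a difference at least as low.

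Dim and bright probes also differed in Rad51l1. The 26 dimmer probes had a mean over the 3 arrays of 0.24 and the 27 brighter ones -0.012. In the whole window the 144 dimmer probes had 0.20 and the 145 brighter ones -0.063. The correlation of a probe's ratio with its mean log2 signal was -0.54, -0.51 and -0.44 over the 289 probes on arrays 1, 2 and 3, and -0.50, -0.49 and -0.47 over all autosomal probes. Both quantities are made from the same signals, and the probes share 1 array. With the GC share of the probe, the correlations in the window were 0.047, 0.15 and 0.076. The part of signal level in the Rad51l1 mean was not tested beyond these values and the loess setting, under which its mean was 0.092.

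The stretch with the highest shared ratio lay between the last Rad51l1 probe and the first Actn1 probe (80919022 to 81254149, 335.1 kb). Its 25 probes ran from -0.56 through a median of 0.39 to 1.05 on array 1, from -0.29 through 0.35 to 0.74 on array 2, and from -0.36 through 0.42 to 0.85 on array 3. Of the 25, 19 were above 0 on all 3 arrays, 15 reached 0.2 on all 3, and 4 were below 0 on all 3. The shares of autosomal probes were 33.4%, 11.2% and 34%. The stretch is singled out for its high ratios, so these counts are a description. The means were 0.30 (SE over probes 0.089), 0.31 (SE 0.053) and 0.33 (SE 0.057). Taken probe by probe, array 1 minus the mean of arrays 2 and 3 was -0.020 (SE over probes 0.053). In log2 centred on the autosomal median, the line signal averaged 0.030, 0.051 and 0.076 on arrays 1, 2 and 3. The liver signal averaged -0.26, -0.25 and -0.23, further from that median than the line signal. Which channel the high ratio came from was not tested. All 3 means were below the 0.585 that 1 added copy in all cells would give. Whether copy number was changed here was not tested, and there was no dye swap. If it was, a gain in part of the cells and a damped response of the probes cannot be told apart in bulk DNA.

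The array gives the name BC027227 to 24 of these 25 probes and to 5 probes beyond Actn1. That name had no match in the RefSeq gene table used here. In the order of that table (GRCm38.p6), 15 genes lie between Rad51b and Actn1, of which 11 are long noncoding RNA genes, 2 are pseudogenes and 2 are protein-coding. The protein-coding gene of the pair with a given name is Zfp36l1, whose product binds AU-rich elements of messenger RNA and speeds their decay. It was looked up after the values were seen. Of the 15, 1 had a probe of its own name, the noncoding gene 2310015A10Rik, which read -0.46, -0.012 and -0.011 on its single probe.

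BC027227 as a whole had 29 probes with means of 0.28, 0.30 and 0.32 on arrays 1, 2 and 3, and 0.30 ± 0.020 (SD, n = 3 arrays). The 24 probes before Actn1 averaged 0.33, 0.33 and 0.34. The 5 probes after Actn1 (81362695 to 81435218) averaged 0.029 (SE over probes 0.20), 0.19 (SE 0.14) and 0.21 (SE 0.16). Array 1 minus the mean of arrays 2 and 3 was -0.17 there (SE over probes 0.11). On 5 probes, these errors are too wide to say whether the arrays differ. Of the 1096 genes with at least 20 probes, a minimum also taken after the values were seen, 1 (0.0912%), BC027227 itself, had a mean this high. A mean of at least 0.1 on all 3 arrays was found in 10.7% of the 9462 genes, and of -0.1 or lower on all 3 in 7.61%. The 14 dimmer probes of BC027227 had a mean of 0.44 and its 15 brighter ones 0.18, both above 0.

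The highest mean of 10 consecutive probes in the window lay inside this stretch on every array. On arrays 1 and 3, and in the mean of the 3 arrays, it was the same run, from 80932234 to 81076488 (144.3 kb), at 0.46, 0.42 and 0.44 on arrays 1, 2 and 3. On array 2 the highest run began later, from 80977675 to 81125081, at 0.42. Runs as high made up 0.0688%, 0.0198% and 0.0453% of the 161278 autosomal runs on arrays 1, 2 and 3. In the mean of the 3 arrays, 9 runs (0.00558%) were as high, counting this one. It was the highest of the window, so the rest did not lie inside the window. Neighbouring runs share probes, so the runs counted are not independent. Each run named here was picked as the most extreme of the 280 in the window, so its percentage is a description. The highest excess of array 1 over arrays 2 and 3 lay in Gphn, from 79480066 to 79559650, at 0.36, -0.085 and 0.046, a difference of 0.38 that 41 runs (0.0254%) reached. The lowest runs were less extreme. On array 1, and in the mean of the 3 arrays at -0.16 (6.65% of autosomal runs as low), the lowest lay before Gphn, from 78997696 to 79316288, at -0.25, -0.11 and -0.11 (3.74% as low as array 1). On array 2 it lay in Gphn, from 79570337 to 79675303, at -0.18 (4.35%), and on array 3 in and beyond Galntl1, at -0.13 (11.6%). The shared rise and the array 1 rise thus lay at separate positions, and the 63 probes between Gphn and Rad51l1 had means of 0.054, 0.049 and -0.0093.

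**Figure D4:**
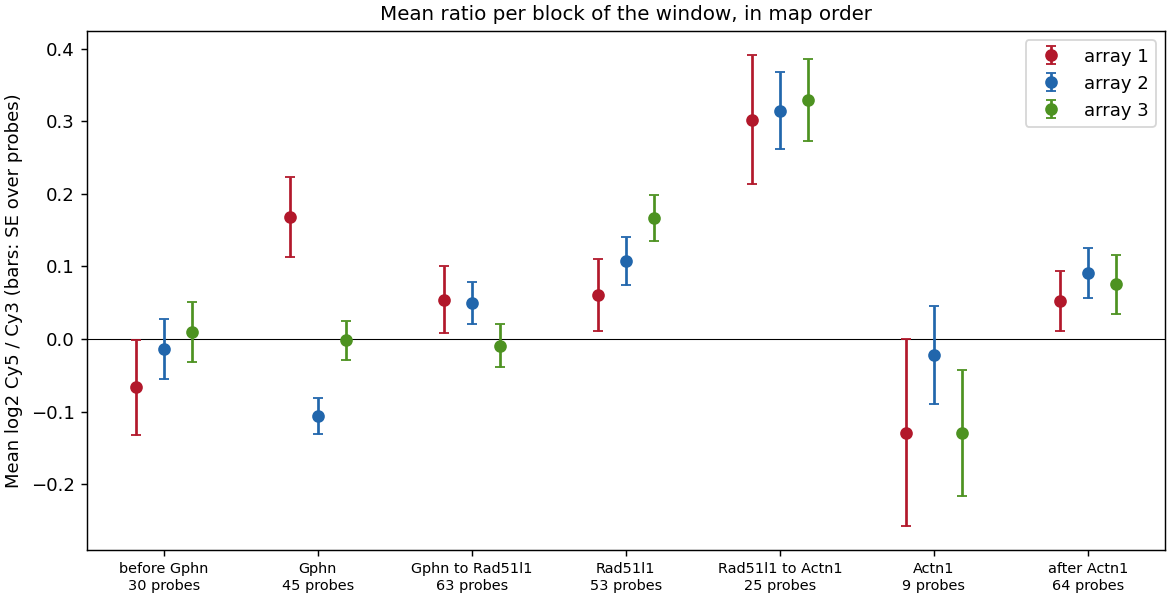
Mean log2 ratio of line over liver (vertical axis) for 7 consecutive blocks of the window in map order (horizontal axis, with the number of probes), for arrays 1, 2 and 3; bars are the SE over probes within an array. The 3 arrays lie together at 0.30 to 0.33 in the block from Rad51l1 to Actn1, and in Gphn array 1 at 0.17 stands apart from array 2 at -0.11 and array 3 at -0.0020.

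Actn1 had 9 probes over 81.6 kb (81270799 to 81352374), so its means have the widest errors of the 3 genes. On array 1 its probes ran from -0.59 through a median of -0.16 to 0.56, on array 2 from -0.33 through -0.070 to 0.29, and on array 3 from -0.45 through -0.10 to 0.25. The means were -0.13 (SE over probes 0.13), -0.022 (SE 0.067) and -0.13 (SE 0.087), or -0.093 ± 0.062 (SD, n = 3 arrays). A mean below 0 on all 3 arrays was found in 27.6% of genes, and among the 2970 genes with 6 to 12 probes, 534 (18%) had a mean at least as low. The highest Actn1 probe read 0.56, 0.29 and 0.25 and the lowest -0.52, -0.33 and -0.45. The 4 dimmer Actn1 probes had a mean over the 3 arrays of 0.050 and the 5 brighter ones -0.21.

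Array 1 minus the mean of arrays 2 and 3 was -0.053 in Actn1 (SE over probes 0.099), and 843 of the 2970 genes (28.4%) had a difference at least as low. Its sign turned with the processing: it was 0.10 with normexp background correction and 0.012 in the authors' value table. Without its first probe (81270799) it was 0.028 (SE 0.064), a value added after the probes were seen. With normexp, the array 1 mean was 0.026, and with loess the array 2 mean was 0.0052. Under 6 other ways of processing, the Actn1 mean over the 3 arrays was between -0.10 and -0.042. The probe at 81270799 read -0.50 on array 1 against 0.23 and 0.20, and it had the lowest difference of the gene, -0.71. The remaining 8 probes had differences from -0.26 to 0.29. The drop from the high stretch to Actn1 was present on each array, from 0.30, 0.31 and 0.33 to the Actn1 means above.

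**Figure D5:**
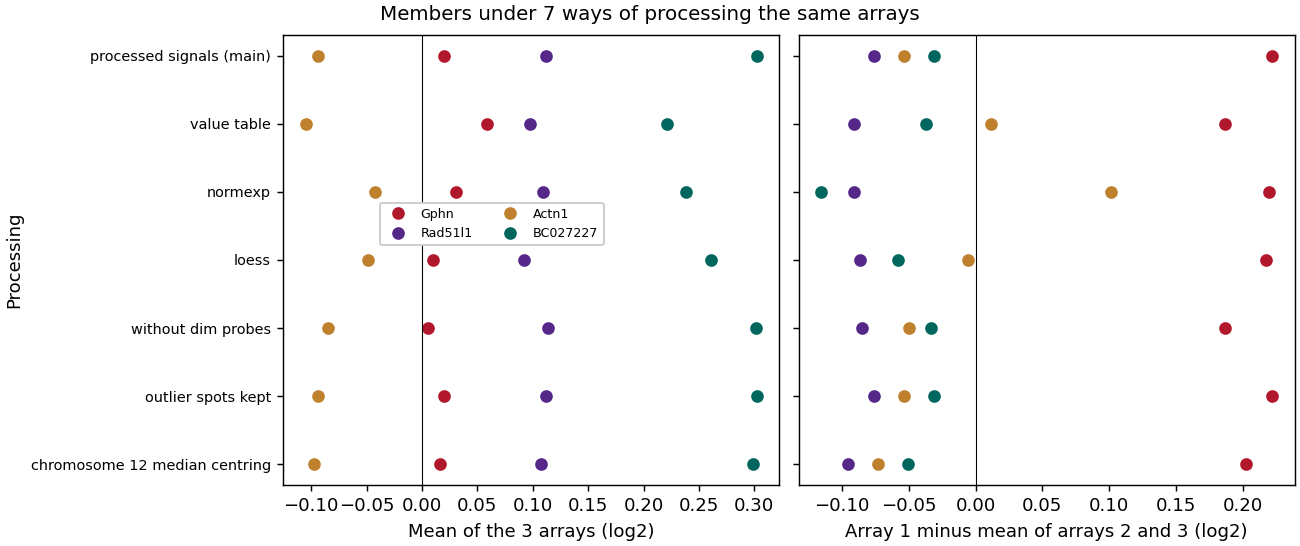
Left, the mean of the 3 arrays and right, array 1 minus the mean of arrays 2 and 3 (log2, horizontal axes) for Gphn, Rad51l1, Actn1 and BC027227 under 7 ways of processing the same arrays (vertical axis). The Gphn difference stays between 0.19 and 0.22, while the Actn1 difference runs from -0.073 to 0.10 across 0.

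Under 6 other ways of processing, the Gphn excess of array 1 was between 0.19 and 0.22 and the Rad51l1 mean between 0.092 and 0.11. The mean of BC027227 was between 0.22 and 0.30 and that of the stretch between Rad51l1 and Actn1 between 0.27 and 0.31. The Gphn excess was 0.19 when probes not well above background on at least 1 array were left out.

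Segmentation of chromosome 12, which divides the probes of an array into stretches of equal mean, called 0 segments in the window on each array. It asked for at least 10 probes and a mean at least 0.2 from 0, with a penalty of 10 times log(n) for each break. With a penalty of 2 and at least 5 probes, it called 1 segment on array 2 and 1 on array 3. That of array 2 ran from 80775437 to 81270858, with 40 probes at 0.29, and array 1 averaged 0.24 over the same probes. That of array 3 ran from 80684661 to 81270858, with 49 probes at 0.29, and array 1 averaged 0.20 there. Both ended at the first Actn1 probe and began inside Rad51l1. Array 1 had no break there and put the window in a segment of 1679 probes at 0.068. No segment began or ended at Gphn on any array under either setting.

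The other genes of the window with at least 3 probes are given in map order. Fut8, which adds the core fucose to N-glycans, had 0.048, -0.073 and -0.0057 on arrays 1, 2 and 3 over 8 probes. Past Gphn, Fam71d had -0.0098, -0.054 and -0.12. Mpp5, a scaffold of the Crumbs polarity complex, had 0.045, 0.065 and 0.048. Fut8 is given here on its 8 window probes, and all of its 24 probes had 0.10, -0.044 and 0.034, an excess of 0.11 on array 1. Tmem229b had 0.085, 0.031 and -0.088, Plekhh1 -0.15, -0.097 and -0.26, and BC028900 0.025, 0.10 and 0.14. Zfyve26, which encodes spastizin and lies next to Rad51l1, had -0.023, 0.071 and -0.058.

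Beyond Actn1, Dcaf5, a substrate receptor of a cullin ubiquitin ligase, had -0.14, -0.069 and -0.078 over 10 probes. Exd2, an exonuclease gene, had -0.19, -0.13 and -0.16, and Galntl1 (Galnt16), a GalNAc transferase gene, had 0.020, 0.0035 and -0.096. Slc39a9, which encodes a zinc transporter, was higher on array 1 at all 4 of its probes, with means of 0.28, 0.087 and 0.041 and an excess of 0.22. This was close to the excess of Gphn, on 4 probes in place of 45. 3830431G21Rik (Plekhd1) had 0.029, 0.10 and -0.0060. 4933426M11Rik (Susd6) had 0.12, 0.29 and 0.34 over 8 probes, a difference of -0.20 (SE over probes 0.21). Without its probe at 81892528 the difference was -0.016 (SE 0.11), so it rested on that probe. The probe read -0.22, 0.98 and 1.54, the highest value of the window on arrays 2 and 3. The 53 probes with no gene name had 0.044, 0.086 and 0.076.

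The edges of the window were set by position. The 10 probes just before it had 0.21, 0.021 and 0.085 and the first 10 inside had 0.079, 0.0098 and 0.018. The last 10 inside had 0.10, 0.12 and 0.098 and the 10 just after had 0.12, 0.057 and 0.11.

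The genes whose 3 array means were most like those of each gene were taken from 2672 genes with at least 10 probes off chromosome 12, by Euclidean distance over the 3 arrays. For Gphn they were Htr2c, a serotonin receptor gene on X, with 0.14, -0.10 and -0.0033, and Memo1, with 0.18, -0.071 and -0.017. For Rad51l1 they were M10062, with 0.072, 0.12 and 0.16, and Atf7, a transcription factor gene, with 0.041, 0.097 and 0.16. For Actn1 they were AK038386, with -0.13, -0.035 and -0.12, and Cryl1, with -0.13, -0.041 and -0.13. Each pattern thus had near matches on other chromosomes, at distances of 0.015 to 0.041.

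The genes that work with gephyrin, alpha-actinin-1 and RAD51B were tested across the genome. The fit used limma on gene means against 0 over the 3 arrays, with Benjamini-Hochberg adjustment over 9462 genes. It called 2285 genes (24.1%), of which 1343 (14.2% of those tested) lay above 0 and 942 (9.96%) below. In the lists that follow, rose and fell mean called above and below 0. With the same dye orientation on all 3 arrays, the fit cannot separate an offset of dye or probe from a difference in DNA. The authors' value table gave another split, with 808 higher and 1036 lower. Arrays 2 and 3 share an animal number, and with them averaged and counted as 1 sample the fit called 730 genes.

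Of 33 genes of inhibitory synapses and the molybdenum cofactor, 22 had at least 3 probes, and 1 rose, 2 fell and 19 did not pass, with a list median of -0.059 against 0.011 for all genes. Gad1, which makes GABA from glutamate, had 0.26, 0.21 and 0.16 on arrays 1, 2 and 3 (mean 0.21 ± 0.047, limma adjusted p = 0.0116). Aox1, a molybdenum cofactor enzyme, had -0.29, -0.18 and -0.25 (mean -0.24 ± 0.056, limma adjusted p = 0.00856). Gabrg3, a GABA receptor subunit gene, had -0.11, -0.17 and -0.25 (mean -0.17 ± 0.070, limma adjusted p = 0.0254). Errors are SDs over 3 arrays.

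Of 25 genes of actinins and focal adhesions, 16 were tested, and 3 rose, 1 fell and 12 did not pass, with a median of 0.036. In the authors' value table that median was -0.011. Parvb (beta-parvin) had 0.14, 0.38 and 0.42 (limma adjusted p = 0.00953) and Vcl (vinculin) 0.28, 0.16 and 0.20 (limma adjusted p = 0.0122). Ptk2, the focal adhesion kinase gene, had 0.21, 0.11 and 0.14 (limma adjusted p = 0.0311). Actn2, the gene of the muscle actinin, fell, with -0.25, -0.17 and -0.27 (limma adjusted p = 0.00969). Actn4, which encodes the other non-muscle actinin, had -0.12, 0.016 and -0.13 and did not pass (limma adjusted p = 0.231).

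Of 24 genes of homologous recombination, 14 were tested, and 2 rose, 1 fell and 11 did not pass, with a median of 0.084. Under normexp that median was -0.0025. Rad51c, a recombination gene, had 0.28, 0.058 and 0.18 (limma adjusted p = 0.0409). Dmc1, the meiotic recombinase gene, had 0.15, 0.093 and 0.15 (limma adjusted p = 0.0460). Bard1, which encodes the partner of BRCA1, had -0.33, -0.093 and -0.15 (limma adjusted p = 0.0328).

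The shares of list genes called are set against 24.1% of all genes, and nothing particular to the lists is read from them. Gad1 and Rad51c rested on 3 probes each, Dmc1 on 5, and Aox1 and Actn2 on 7. Parvb and Bard1 had 8, Vcl 12, Ptk2 21 and Gabrg3 64. The p-values use the spread of gene means over arrays and not that over probes. With arrays 2 and 3 averaged, Aox1 (limma adjusted p = 0.0440) and Actn2 (limma adjusted p = 0.0464) passed and the other 8 named list genes did not. With normexp, 6 of the 10 did not pass: Aox1, Actn2, Gad1, Gabrg3, Rad51c and Dmc1 had limma adjusted p of 0.345, 0.452, 0.0811, 0.0695, 0.0503 and 0.0837. In the authors' value table Aox1, Actn2 and Rad51c did not pass, with limma adjusted p of 0.0595, 0.0557 and 0.0841, and Gad1 had no value. The same 3 did not pass with loess, with limma adjusted p of 0.0927, 0.0914 and 0.0542. By probe medians 3 of the 10 did not pass, with at least 1 probe 5, without dim probes 1, without array 2 4 and without array 3 5.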

How the data were processed

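Genomic DNA of 3 lines (Cy5) and of liver (Cy3) was measured on 3 arrays of 1 slide. Per the file headers, the deposited intensity values were made by Feature Extraction 10.7.3.1 (Agilent) and are background-subtracted, detrended and linearly dye-normalised, on a design with mm9 positions. A log10 ratio of the same signals is deposited beside them. The authors' value table holds log10 values, with medians of 0.000435, -0.00146 and -0.00271. Set against the scanner ratios, it correlated at 0.867, 0.844 and 0.884 with slopes near 1.00, which settles scale and direction. Its centring and correction are not given in the sources used here.

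Processed intensities were turned into log2 ratios of Cy5 over Cy3, leaving out controls and spots with outlier marks, and centred on the median of 161460 autosomal probes. Gene values are means over probes of 1 name. Exon, intron and untranslated region annotation of mm9 was not used here, and GRCm38.p6 RefSeq names served for synonyms and gene order. Segments minimise a penalised sum of squares. Tests used limma 3.58.1 (lmFit, eBayes, 2-sided, threshold 0.05) in R 4.3.3, and other steps Python 3.11.15, after both were checked on simulated data. Nothing says that the arrays are independent beyond their labels, so p-values reflect only how these samples vary, which may be technical, and the number of arrays limits precision.

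The members and lists were chosen with earlier results of these data known. The text names the 3 genes, each window gene with at least 3 probes, list members past the threshold and, per gene, the 2 most alike genes. Alternatives were the value table, normexp (offset 50), loess, filters on dim probes, outlier marks, centring, gene medians, probe minimums and leaving out arrays. Results that need some genes of the lists are not reported here.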

Additional observations from a re-analysis of the deposited data

How the results depend on the processing

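Over 27 results and 228 alternative values, 176 stayed within the spread between arrays or, for counts, close to the main count, and 52 moved. The sign changed in 5 values, none of which had a test. The Actn1 difference of array 1, -0.053, became 0.10 with normexp, 0.012 in the value table and 0.028 without its probe of the largest difference, a setting chosen after seeing the data. The Gphn mean, 0.020, became -0.054 without array 1, and the window difference also changed sign. Leaving out 1 array moved no mean of Gphn, Rad51l1, Actn1 or the window beyond the spread between arrays. The window difference of 0.011 became -0.0085 with chromosome 12 centring, 0.031 with probe medians, 0.021 with normexp and 0.0019 without dim probes. The window mean became 0.055 with probe medians and 0.079 with normexp. The highest 10-probe run on arrays 1, 2 and 3 and in their mean became 0.35, 0.39, 0.46 and 0.35 in the value table, and 0.39, 0.41, 0.53 and 0.42 with normexp. With runs of 20 probes these were 0.36, 0.36, 0.38 and 0.36. With loess they were 0.37 on array 1, 0.39 on array 2 and 0.40 in the mean. The lowest run of array 1 became -0.14 with normexp and -0.14 over 20 probes, and that of the mean became -0.056 over 20 probes. Segments called in the window went from 0 to 1 on array 2 and to 1 on array 3 with the penalty of 2 and at least 5 probes.

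Genes past 0.3 in array 1 minus the others numbered 1185 up and 1775 down with at least 1 probe, 4 and 3 with at least 10, 676 and 580 past 0.2, and 343 and 276 by probe medians. Up, they numbered 100 with loess and 110 without dim probes. Genes past the limma threshold numbered 730 with arrays 2 and 3 averaged, 4767 with at least 1 probe and 765 with at least 10. They ranged from 1077 without array 2 (1222 without array 3) to 3172 without array 1. The gephyrin list had 1 gene past the threshold with arrays 2 and 3 averaged, and 1 to 5 when 1 array was left out, lowest without array 2. The actinin list had 1 with arrays averaged, 2 with at least 10 probes and 3 to 4 when 1 array was left out. The recombination list had 0 with arrays averaged, 1 with at least 1 probe and 1 to 7 when 1 array was left out, lowest without array 3. It gave no value with at least 10 probes. The causes of these moves were not tested, apart from fewer genes or arrays entering a fit.

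No paired analysis was possible because all 3 arrays form 1 group. Signal over background limits array 1 most, where 96.4% of liver signals were well above background against 98.6% and 99.1% on arrays 2 and 3.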

Other observations

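Slc39a9, which lies beyond Actn1, had a liver signal 0.16 lower and a line signal 0.062 higher on array 1 than on arrays 2 and 3, over 4 probes. In Gphn the line channel, at 0.12, and the liver channel, at -0.11, held about equal parts of the excess.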
